A study of Mus musculus with 12 samples.

Results

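MODE-K is an established line from mouse small intestinal epithelium, carried here as wild type cells in culture flasks. The comparison described is between cells harvested 48 h after 4 Gy of gamma rays (4Gy_48h, 3 libraries) and unirradiated cells harvested at 0 h (control, 3 libraries), which makes 6 of the 12 libraries sequenced from total RNA. The libraries were taken by their labels, and the 3 libraries of the same cells harvested 48 h after 12 Gy (12Gy_48h) are used further on to set the lower dose beside the higher one. Rays came from a cobalt source at 87 cGy/min. The controls were taken at 0 h, so radiation and 48 h of further culture cannot be told apart in any difference from control. The labels speak of parallel groups at each dose and do not call them separate cultures. A p here therefore speaks only to library-to-library spread, part or all of which may be technical.

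Ionising radiation breaks DNA, and the classical early answer is transcriptional: p53 accumulates and switches on genes that halt the cycle, repair DNA or start apoptosis. Days later, DNA or RNA that reaches the cytosol can be detected by innate sensors, which leads to interferons and, through their receptors, to a broad set of interferon-stimulated genes with antiviral functions. A separate group of genes answers low oxygen through hypoxia-inducible factors, which raise glycolytic enzymes, pH regulators and mitophagy receptors.

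Assigned reads numbered 3748891 to 4026800 in the 4Gy_48h libraries and 3776038 to 4831641 in the controls. The label was set beside marker genes. Of 18 epithelial markers 5 had enough reads to test, and of 20 intestinal lineage markers none (0) did. Epcam had 1, 0 and 0 reads in the 4Gy_48h libraries and 0 in each control, Cdh1 had 0 in all 6 libraries, and Krt8 had 2, 0 and 0 reads at 4Gy_48h against 1, 0 and 1 in the controls. Tjp1, the most expressed of the 5 tested, had 49, 32 and 35 reads at 4Gy_48h and 43, 34 and 34 in the controls. Of 21 fibroblast and mesenchymal markers 12 had enough reads to test, and 3 had no read in the 6 libraries. Among those with many reads, Vim had 4389, 5793 and 3693 at 4Gy_48h and 4452, 1917 and 1884 in the controls. Col1a2 had 904 to 1068 reads at 4Gy_48h and 648 to 880 in the controls. Immune and endothelial markers were near absent, with 4 of 18 and 1 of 12 tested. Most transcripts listed for an intestinal epithelium were therefore at or near 0 in these libraries, while a part of the mesenchymal ones was present. The cells are called by the name of the line.

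Counts were tested in two-sided fits of edgeR's quasi-likelihood model, with Benjamini-Hochberg adjustment over all features of a fit and a threshold of adjusted p = 0.05. One fit held every feature of the table. A second held the known genes (those with an Ensembl gene) alone, filtered, scaled and adjusted among themselves, because loci assembled by the authors without an Ensembl gene shifted the scaling. A known gene is said to have risen or fallen only where both fits called it in the same direction. Levels are CPM, read counts scaled to a common library size, after TMM scaling over all genes, and fold changes are log2 values of 4Gy_48h over control from the fit to all genes unless known genes alone are named. Cell number and RNA content per cell cannot be told apart in such bulk values.

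Most of what changed between 4Gy_48h and control lay outside the known genes. Of 15086 features tested, 684 were called higher (4.53%) and 1965 lower (13.0%), and 1834 of those called lower were assembled new loci. Among the 4898 new loci tested, 37.4% were lower and 65 were higher, with a median log2 fold change of -0.70. Reads outside known genes made up 17.7, 17.4 and 19.3% of all assigned reads at 4Gy_48h (18.1 ± 0.990%) and 22.3, 24.4 and 24.4% in the controls (23.7 ± 1.19%, SD, n = 3 each). The groups did not overlap, and the two-sided exact permutation test gave p = 0.1, the smallest that 3 against 3 libraries allow. By library, the median difference of the new loci from the control mean was -0.70, -0.77 and -0.46 at 4Gy_48h and -0.09, 0.09 and 0.04 in the controls, so 4Gy_48h replicate 3 lay nearest to the controls.

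The share called lower varied with the annotation that came with the new loci. Of 3344 loci whose database match was the same orthology entry, K11969, 1345 (40.2%) were called lower, with a median of -0.74. Of 1313 loci with some other match, 451 (34.3%) were lower, with a median of -0.62, and of 241 with no match 38 (15.8%) were lower, with a median of -0.06. The most abundant assembled locus among those called higher, ONT.11566, had 6510, 6200 and 6040 CPM at 4Gy_48h and 5510, 4250 and 4380 CPM in the controls (log2 fold change 0.41 ± 0.10 SE, adjusted p = 0.00932). ONT.9679 was higher by a smaller margin (0.29, adjusted p = 0.0372), while ONT.480, a long noncoding locus, had 2130, 1830 and 2480 CPM at 4Gy_48h against 2800, 2770 and 3370 CPM in the controls (-0.47, adjusted p = 0.00865). ONT.10796 was called lower at -0.56 (adjusted p = 0.024), with groups that overlapped at 2400 CPM in 1 irradiated library and 2230 CPM in 1 control. The strand and genome position of these loci were not used here.

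The fall of the new loci moved the known genes the other way. Scaled with all genes, known genes had a median log2 fold change of 0.14, with 609 called higher and 86 lower of 9809. Scaled alone, 9816 known genes had a median of -0.01, with 74 called higher (0.754%) and 56 lower (0.57%), and 1491 below an unadjusted p of 0.05. In both fits 74 known genes were called higher (0.754% of 9809) and 54 lower (0.551%), and none (0) was called in opposite directions. The 535 known genes that were higher only in the fit to all genes are not described as having risen. Single libraries moved these counts in either direction. Without control replicate 3 the fit to known genes alone called 29 higher and 14 lower, and 29 of the 74 and 12 of the 54 were among them. Without control replicate 1 it called 158 higher and 122 lower, and without 4Gy_48h replicate 1 it called 41 higher and 18 lower. Without 4Gy_48h replicate 2 it called 25 lower. With each library left out in turn, 27 of the 74 risen genes and 9 of the 54 fallen genes passed every time.

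**Figure D1:**
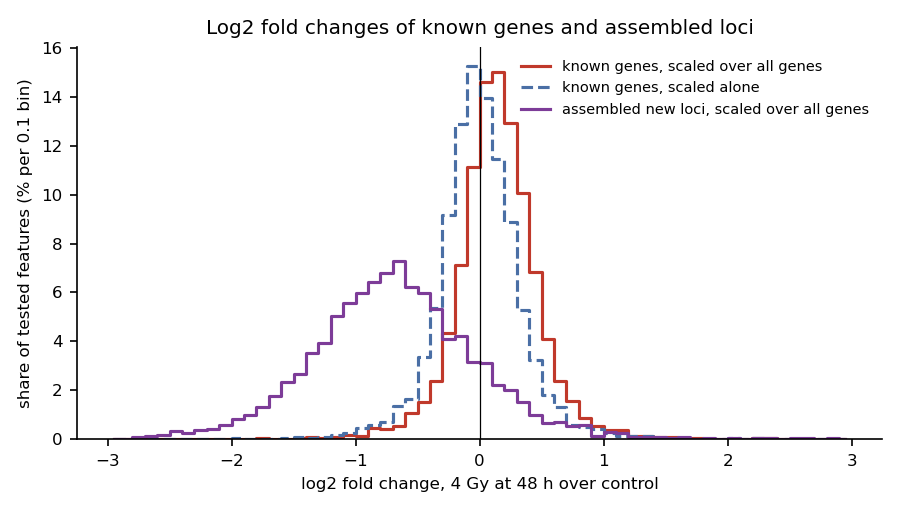
Distribution of log2 fold changes (x axis, 4 Gy at 48 h over control) as the share of tested features per 0.1 bin (y axis) for known genes scaled over all genes, known genes scaled alone and assembled new loci. The new loci centre on -0.70, and scaling the known genes alone moves their median to -0.01 from 0.14.

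The genes that rose were led by interferon-stimulated genes. Of 70 tested members of a list of 74, 33 rose and none (0) fell, beside 0.754% and 0.551% of all known genes. The list had a median log2 fold change of 0.92, and of 0.77 among known genes alone, beside -0.01 over all known genes scaled alone. The members span sensors (Zbp1, Ddx58, Eif2ak2), a transcription factor (Irf7), effectors (Ifit1, Ifit3, Rsad2, Bst2) and the ubiquitin-like modifier Isg15. The summed level of the tested members was 5514 to 6501 CPM at 4Gy_48h and 3133 to 3943 CPM in the controls. Ly6e, the most expressed of them, passed only in the fit to all genes (0.36, adjusted p = 0.0378). Among known genes alone it was at 0.22 (adjusted p = 0.362). Without control replicate 3, 19 members were called among known genes alone, and 19 of the 33 passed with each library left out in turn.

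Promoters of 3 risen interferon genes show the element through which interferon signalling acts on its targets. The windows are RefSeq's on GRCm38.p6 and run from 250 bases before to 50 bases after the transcription start, 5′ to 3′ on the gene's strand. Capitals mark GAAA, any 2 bases and GAAA again, the core of the interferon-stimulated response element, on either strand, and overlapping matches are merged. The Ifit3 window is chr19:34583279-34583578 (plus strand), that of Rsad2 is chr12:26456403-26456702 (minus strand) and that of Isg15 is chr4:156200769-156201068 (minus strand).
Ifit3: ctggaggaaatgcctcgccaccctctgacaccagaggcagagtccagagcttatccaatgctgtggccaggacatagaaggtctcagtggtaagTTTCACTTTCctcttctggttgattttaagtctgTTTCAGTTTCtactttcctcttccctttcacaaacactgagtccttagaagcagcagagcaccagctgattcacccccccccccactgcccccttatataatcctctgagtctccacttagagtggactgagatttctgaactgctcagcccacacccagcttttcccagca
Rsad2: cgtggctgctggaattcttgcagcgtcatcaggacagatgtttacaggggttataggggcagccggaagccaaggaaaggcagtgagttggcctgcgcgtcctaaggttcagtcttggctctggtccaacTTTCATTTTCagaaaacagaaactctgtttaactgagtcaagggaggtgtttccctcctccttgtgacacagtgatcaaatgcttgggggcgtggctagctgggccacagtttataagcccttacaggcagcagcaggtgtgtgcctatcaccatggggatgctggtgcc
Isg15: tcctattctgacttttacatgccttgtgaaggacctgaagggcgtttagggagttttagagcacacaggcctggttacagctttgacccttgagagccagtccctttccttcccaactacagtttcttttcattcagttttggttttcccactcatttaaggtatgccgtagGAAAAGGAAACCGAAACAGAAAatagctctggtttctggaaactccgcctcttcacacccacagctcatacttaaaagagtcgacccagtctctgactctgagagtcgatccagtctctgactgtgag
The Ifit3 window holds 2 matches, that of Rsad2 1 match and that of Isg15 3 overlapping matches. Of the 33 interferon genes that rose, 28 had a window in the RefSeq table, and 14 of them held the core. Of the 29 with a window among the 37 members that did not pass, 10 (34.5%) held it. The share was 3.99% over the 27025 genes with a window and 3.79% over the known genes tested. None (0) of 39 fallen genes with a window held it. A match is a description of letters, not of a bound site.

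Ifit3, which encodes an adaptor of the antiviral IFIT complex (chr19:34583531-34588731, plus strand, GRCm38), had 16.9, 20.2 and 26.2 CPM at 4Gy_48h and 2.79, 4.10 and 3.48 CPM in the controls. Every irradiated library was several times above every control, and the log2 fold change was 2.61 ± 0.28 (SE, adjusted p = 3.79e-05) and 2.46 among known genes alone (adjusted p = 0.000269). Rsad2, whose product viperin makes a chain-terminating nucleotide, had 19.0, 22 and 20.2 CPM at 4Gy_48h against 4.08, 4.61 and 4.29 CPM in the controls. Its libraries varied little within a group, and it rose by 2.23 ± 0.21 (adjusted p = 1.47e-05) and by 2.09 among known genes alone (adjusted p = 6.4e-05). Cmpk2, a nucleotide kinase beside Rsad2 on chromosome 12, rose at a low level, with 5.19, 8.64 and 11.6 CPM at 4Gy_48h and 1.72, 1.54 and 1.34 CPM in the controls (2.43, adjusted p = 0.000791; 0.0522 among known genes alone without control replicate 3). Ifit3b, a close copy of Ifit3 that can share its reads, rose by 2.38 (adjusted p = 0.000886).

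Ifit1, which binds viral RNA lacking a 2′-O-methylated cap, had 160, 173 and 168 CPM at 4Gy_48h and 34.6, 74.5 and 39.4 CPM in the controls. It rose by 1.76 ± 0.22 (adjusted p = 8.8e-05). Isg15 had 741, 617 and 754 CPM at 4Gy_48h against 197, 379 and 232 CPM in the controls, a rise of 1.39 ± 0.18 (adjusted p = 0.000159). In both genes control replicate 2 was the highest control and still below every irradiated library. Bst2, a membrane tether of budding virions, had 1050, 758 and 944 CPM at 4Gy_48h and 480, 444 and 351 CPM in the controls, a rise of 1.11 ± 0.13 (adjusted p = 7.22e-05). Among known genes alone Ifit1, Isg15 and Bst2 were past the threshold with each library left out, with adjusted p of at most 0.0302.

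Gbp3, a guanylate-binding protein of a family that attacks the vacuoles of intracellular pathogens, rose, while Gbp7, Igtp and Irgm2, interferon-induced GTPases of the list, did not pass in both fits. Gbp3 had 49.3, 31.6 and 43.2 CPM at 4Gy_48h against 9.46, 16.4 and 5.89 CPM in the controls (1.96 ± 0.28, adjusted p = 0.000219). Tgtp1, another such GTPase with a near-identical neighbour that can share its reads, had 11.7, 7.40 and 7.55 CPM at 4Gy_48h and 1.72, 2.30 and 1.34 CPM in the controls (2.29, adjusted p = 0.000775; 0.0522 among known genes alone without control replicate 3). Ifi27l2a, an interferon-induced mitochondrial protein outside the list, had 513, 211 and 299 CPM at 4Gy_48h and 138, 73.0 and 54.1 CPM in the controls (1.94, adjusted p = 0.000482). Replicate 1 was the highest in both groups. Ly6a, a surface antigen induced by interferon and also listed among YAP targets, had 25.7, 13.6 and 25.4 CPM at 4Gy_48h and 6.88, 2.56 and 3.75 CPM in the controls (2.24, adjusted p = 0.000594). Of 21 YAP targets tested, Ly6a was the 1 that rose, beside 0.754% of all known genes, so no result about the list is read from it.

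Other members named after their values were seen include Irf7, the amplifier of interferon production, at 257, 149 and 220 CPM at 4Gy_48h against 79.7, 90.7 and 56.8 CPM in the controls (1.46, adjusted p = 0.000198). Irf7 overlaps Phrf1 on the other strand, and whether counting used strand is not given, so its reads are uncertain in part. Usp18, which removes ISG15 from proteins and damps the receptor, had 181, 138 and 196 CPM at 4Gy_48h and 69.0, 95.5 and 61.4 CPM in the controls (1.19, adjusted p = 0.000306). Ifitm3, a barrier to virus entry outside the list, had 1340, 1000 and 1240 CPM at 4Gy_48h and 795, 823 and 593 CPM in the controls (0.70, adjusted p = 0.0017). Mx1 was not tested, having 1, 2 and 0 reads at 4Gy_48h and 0 in each control. Ifi27, at -0.31 (adjusted p = 0.1), and Trafd1, at 0.03 (adjusted p = 0.92), were the 2 members with a negative value among known genes alone.

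**Figure D2:**
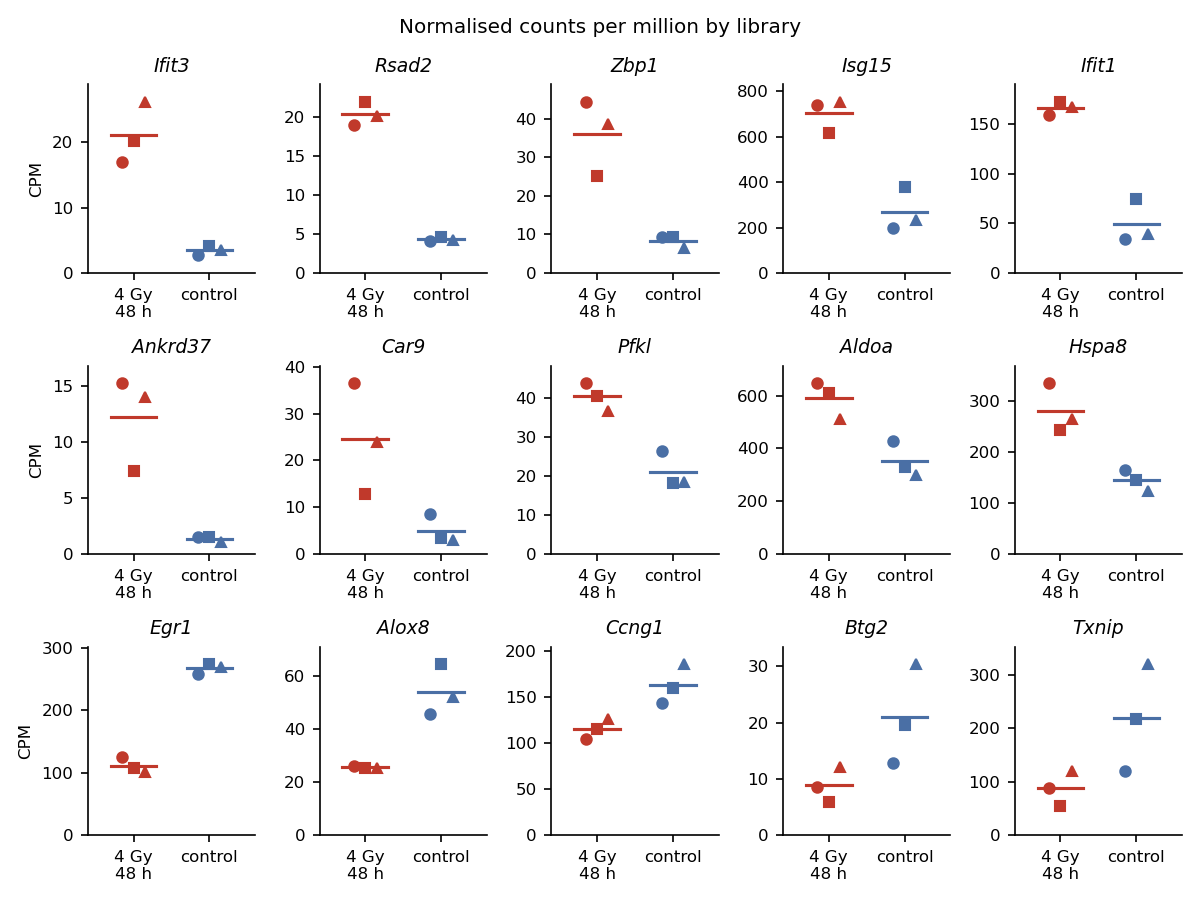
Normalised CPM (y axis, from 0) in each library for 15 known genes, with 4Gy_48h left of control in each panel; circles, squares and triangles are replicates 1, 2 and 3, and bars are group means. Interferon, hypoxia and chaperone genes are higher at 4Gy_48h and the last 5 genes are lower, with groups that overlap in Txnip.

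Among sensors of cytosolic nucleic acid, 5 of 23 tested rose and none (0) fell, beside 0.754% and 0.551% of all known genes. All 5 also stand in the interferon list. The list had a median of 0.34 and of 0.19 among known genes alone, where 2 were called without 4Gy_48h replicates 1 or 2 or control replicate 3, 3 without 4Gy_48h replicate 3 or control replicate 1, and 6 without control replicate 2. Zbp1, which binds Z-form nucleic acid and can start pyroptosis and necroptosis (chr2:173206612-173218923, minus strand), had 44.4, 25.2 and 38.6 CPM at 4Gy_48h and 9.46, 9.22 and 6.43 CPM in the controls. The lowest irradiated library was far above the highest control, and Zbp1 rose by 2.09 ± 0.23 (adjusted p = 4.55e-05) and by 1.95 among known genes alone (adjusted p = 0.000314). Eif2ak2, the kinase PKR that halts translation on double-stranded RNA, had 40.5, 44.2 and 45.9 CPM at 4Gy_48h and 15.3, 23 and 21.7 CPM in the controls (1.13, adjusted p = 0.000249). Adar, which edits adenosine in double-stranded RNA and overlaps Chrnb2, rose by 0.81 (adjusted p = 0.0012), Ddx58, the RNA sensor RIG-I, by 0.83 (adjusted p = 0.00164), and Trim25, its ubiquitin ligase, by 0.92 (adjusted p = 0.00218). In the fit to known genes alone these 3 missed the threshold without control replicate 3 and in other omissions, with adjusted p up to 0.118, 0.162 and 0.176. The calls for Zbp1 and Eif2ak2 passed with each library left out. The DNA sensor gene Cgas did not pass (0.34, adjusted p = 0.63), nor did Tmem173, which encodes STING (0.19, adjusted p = 0.47).

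Genes of antigen presentation by MHC class I, which interferons can induce, were not called. None (0) of 21 tested genes rose or fell in both fits, which is near the 0.754% and 0.551% over all known genes. In the fit to all genes 7 of the 21 were higher, beside 6.21% of the known genes. The median was 0.26, and 0.12 among known genes alone, where 15 values were positive and 6 negative. B2m, the light chain of class I molecules, had 2490, 1630 and 2020 CPM at 4Gy_48h and 1710, 1930 and 1480 CPM in the controls (0.26, adjusted p = 0.198). Its groups overlapped. Reads of the H2 genes can be shared between close copies. Among known genes alone the count called higher was 4 without control replicate 2, 1 without 4Gy_48h replicate 2 or control replicate 1, and 0 without any other library.

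Genes that answer low oxygen formed a second, smaller group. With a median of 0.46 and of 0.31 among known genes alone, 7 of 32 glycolysis and hypoxia genes tested rose. None (0) of them fell, beside 0.754% of all known genes higher and 0.551% lower. Single libraries moved that count. Among known genes alone 1 member was called without control replicate 3 or without 4Gy_48h replicate 1, 4 without 4Gy_48h replicate 2 or replicate 3, and 12 without control replicate 1. The summed level of the tested members was 9573 to 10302 CPM at 4Gy_48h and 6279 to 8703 CPM in the controls.

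Ankrd37, a small ankyrin-repeat gene induced by hypoxia-inducible factor, had 15.3, 7.40 and 14.0 CPM at 4Gy_48h and 1.5, 1.54 and 1.07 CPM in the controls. It rose by 3.11 ± 0.36 (adjusted p = 5.63e-05) and by 2.97 among known genes alone (adjusted p = 0.000353), and passed with each library left out. It overlaps Ufsp2 on the other strand. Car9, a cell-surface carbonic anhydrase that exports acid, had 36.6, 12.8 and 24.0 CPM at 4Gy_48h and 8.60, 3.33 and 2.95 CPM in the controls. The groups did not overlap, although replicates within each group spread widely, and the rise of 2.25 ± 0.49 (adjusted p = 0.00449) was lost among known genes alone without 4Gy_48h replicates 1 or 3 or control replicates 2 or 3 (adjusted p up to 0.183).

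The glycolytic enzymes had smaller fold changes. Pfkl, a phosphofructokinase, had 43.9, 40.5 and 36.7 CPM at 4Gy_48h and 26.4, 18.2 and 18.5 CPM in the controls (0.93 ± 0.16, adjusted p = 0.000816). Aldoa, the aldolase, had 649, 608 and 511 CPM at 4Gy_48h and 429, 329 and 298 CPM in the controls (0.74 ± 0.13, adjusted p = 0.00111). Control replicate 1 was the highest control in both genes. Pgam1, phosphoglycerate mutase, rose by 0.57 (adjusted p = 0.00194), Egln1, the oxygen-sensing prolyl hydroxylase, by 0.85 (adjusted p = 0.00147), and Bnip3, a mitophagy receptor named after its values were seen, by 1.03 (adjusted p = 0.00194). Among known genes alone all 5 missed the threshold without control replicate 3 and without 4Gy_48h replicate 1, with adjusted p up to 0.0931 for Pfkl, 0.118 for Aldoa, 0.188 for Pgam1, 0.153 for Egln1 and 0.175 for Bnip3. Pkm, the pyruvate kinase, passed only in the fit to all genes, with 1960, 2200 and 1780 CPM at 4Gy_48h and 1720, 1090 and 1050 CPM in the controls (0.62, adjusted p = 0.0202; 0.48 and 0.168 among known genes alone).

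The promoters of 2 of these genes are shown with ACGTG, the core bound by hypoxia-inducible factors, in capitals on either strand. The Ankrd37 window is chr8:45999801-46000100 (minus strand) and that of Car9 is chr4:43506776-43507075 (plus strand), from the same RefSeq table.
Ankrd37: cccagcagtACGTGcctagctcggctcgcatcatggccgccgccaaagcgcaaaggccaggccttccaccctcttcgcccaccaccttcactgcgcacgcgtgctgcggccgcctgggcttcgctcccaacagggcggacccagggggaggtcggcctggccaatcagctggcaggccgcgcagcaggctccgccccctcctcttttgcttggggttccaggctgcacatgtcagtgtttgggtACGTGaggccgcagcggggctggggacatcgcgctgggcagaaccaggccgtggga
Car9: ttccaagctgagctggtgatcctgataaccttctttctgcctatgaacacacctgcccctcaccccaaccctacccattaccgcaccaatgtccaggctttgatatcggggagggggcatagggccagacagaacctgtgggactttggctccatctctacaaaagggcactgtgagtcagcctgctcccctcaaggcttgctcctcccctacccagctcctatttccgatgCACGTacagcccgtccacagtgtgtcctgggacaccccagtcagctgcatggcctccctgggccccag
Ankrd37 holds 2 matches and Car9 1. The core is short, and 21.8% of the 27025 genes with a window hold it, and 30.8% of the known genes tested. Of the 7 risen members 6 held it (85.7%), and of the 22 members with a window that did not pass 15 did (68.2%).

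Some chaperones and single genes of other groups also rose, beside 0.754% of all known genes called higher in both fits. Counts of 1 gene in a list are near that share, and no result about those lists is read from them. Of 25 heat shock protein genes tested, Hspa8 and Hsp90ab1, the constitutive cytosolic chaperones, were the 2 that rose. Hspa8 had 337, 243 and 265 CPM at 4Gy_48h and 165, 145 and 124 CPM in the controls (0.96 ± 0.13, adjusted p = 0.000215), and passed with each library left out. Hsp90ab1 rose by 0.60 (adjusted p = 0.00195; up to 0.204 among known genes alone with 1 library left out, control replicate 3 among those that end the call). Ctsl, a lysosomal protease and the 1 of 37 lysosome genes that rose, had 3360, 2960 and 2770 CPM at 4Gy_48h and 1630, 2140 and 1880 CPM in the controls (0.69, adjusted p = 0.00165; up to 0.205 among known genes alone, without control replicate 3 among others). Anln, an actin-binding protein of the cleavage furrow, was the 1 of 56 G2/M and mitosis genes that rose, with 41.8, 61.7 and 46.4 CPM at 4Gy_48h and 32.7, 24.8 and 25.7 CPM in the controls (0.84, adjusted p = 0.0028; up to 0.203 among known genes alone, lost without 4Gy_48h replicates 2 or 3 or control replicates 2 or 3).

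Usp50, a ubiquitin-specific protease gene, was listed with no read in the controls. It had 65, 87 and 75 reads at 4Gy_48h against 0, 0 and 0 in the controls, a level at least 80.1-fold higher when the control group as a whole is set to its floor of 3 reads. Its level was 16.9, 21.5 and 20.2 CPM at 4Gy_48h (adjusted p = 0.00129; 0.0522 among known genes alone without control replicate 3), and floors cover counting error only. Rpl26 was the 1 of 78 cytosolic ribosomal protein genes that rose, with 39.7, 57.2 and 64.5 CPM at 4Gy_48h and 17.4, 19.5 and 19.0 CPM in the controls (1.53 ± 0.25, adjusted p = 0.00061). As 0.754% of all known genes rose, 1 of 78 is near the share over all genes. The whole list had a median of 0.05 and of -0.09 among known genes alone. Its 78 genes summed to 252165 to 264438 CPM at 4Gy_48h, so the reads assigned to Rpl26 were a very small part. Rpl26 reads can be shared with processed copies of the gene.

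Mesenchymal transcripts were higher in part. Of 12 fibroblast and mesenchymal markers tested, S100a4 and Sparc rose, beside 0.754% of all known genes. Among known genes alone 9 values were positive and 3 negative. The summed level of the 12, scaled over all genes, was 2171 to 2920 CPM at 4Gy_48h and 1256 to 1827 CPM in the controls. Vim, the most expressed of them, made up much of it. S100a4, a calcium-binding protein that overlaps Gm42674 on the same strand, had 394, 696 and 401 CPM at 4Gy_48h and 232, 194 and 229 CPM in the controls (1.19, adjusted p = 0.0015; up to 0.0958 among known genes alone). Sparc, a matrix glycoprotein, had 192, 179 and 174 CPM at 4Gy_48h and 115, 112 and 129 CPM in the controls (0.62, adjusted p = 0.0012; up to 0.157 among known genes alone). Both missed the threshold without control replicates 2 or 3 or 4Gy_48h replicate 2, with none (0) of the 12 called there among known genes alone. Without 4Gy_48h replicates 1 or 3, 1 of the 12 was called. Vim, at 1140, 1430 and 996 CPM at 4Gy_48h against 957, 491 and 505 CPM in the controls, passed only in the fit to all genes (0.87, adjusted p = 0.00834; 0.0763 among known genes alone). The part of this difference in the other results was not tested.

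Of the 54 genes that fell, 5 stood in any of the lists and 49 in none, beside 48 and 26 of the 74 that rose. The share of all tested genes that stand in a list was not counted, so 5 of 54 is not read as few. Egr1, an immediate-early zinc finger factor, had 125, 108 and 101 CPM at 4Gy_48h and 259, 275 and 269 CPM in the controls. The replicates lay close together, and it fell by 1.26 ± 0.13 on the log2 scale (adjusted p = 2.94e-05) and by 1.41 among known genes alone (adjusted p = 1.65e-05), with an adjusted p of at most 0.000309 when a library was left out. Alox8, an arachidonate lipoxygenase, had 26.2, 25.4 and 25.4 CPM at 4Gy_48h and 45.6, 64.8 and 52.0 CPM in the controls and fell by 1.07 ± 0.14 (adjusted p = 0.000158). Retn, the adipokine resistin, had 7.01, 5.68 and 5.66 CPM at 4Gy_48h and 14.4, 13.6 and 13.7 CPM in the controls and fell by 1.18 ± 0.22 (adjusted p = 0.0014). Alox8 and Retn also passed with each library left out.

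The largest falls were in genes with few reads. Taf7l, a TAF7 paralogue known from germ cells and fat, had 1.56, 0.247 and 1.89 CPM at 4Gy_48h and 3.44, 7.68 and 7.5 CPM in the controls (-2.31, adjusted p = 0.00986). Avil, an actin-severing villin relative that overlaps Tsfm, had 3.63, 2.71 and 6.2 CPM at 4Gy_48h and 9.88, 21.5 and 21.2 CPM in the controls (-2.06, adjusted p = 0.00331). Sh2d6, an adaptor gene, had 2.34, 1.23 and 7.01 CPM at 4Gy_48h and 9.88, 17.2 and 10.2 CPM in the controls (-1.82, adjusted p = 0.00728). In all 3 the groups stayed apart but spread several-fold inside. Snhg11, a small nucleolar RNA host gene, Zkscan5 and Zfp202, both zinc finger factors, Cox6a2, a muscle-type cytochrome oxidase subunit, and Wdr63, a dynein arm component, fell by 1.39, 1.35, 1.28, 1.04 and 1.03, with adjusted p between 0.00617 and 0.0191. Among known genes alone these 8 genes missed the threshold when libraries were left out, with adjusted p up to 0.152 for Taf7l, 0.0712 for Avil, 0.132 for Sh2d6, 0.205 for Snhg11, 0.118 for Zkscan5, 0.123 for Zfp202, 0.141 for Cox6a2 and 0.118 for Wdr63. Control replicate 3 was among those libraries for each of the 8.

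No p53 target was called higher 48 h after 4 Gy. Of 35 tested, none (0) rose and 2 fell, beside 0.754% and 0.551% of all known genes, so the 0 is near the share over all genes. Among known genes alone 29 of the 35 had a negative log2 fold change, beside 51.6% of all known genes. The list's median was -0.12, and -0.28 among known genes alone. Leaving out control replicate 1 gave 9 members called lower, 4Gy_48h replicate 2 gave 1, and control replicate 3 or 4Gy_48h replicate 1 gave 0. Ccng1, cyclin G1, had 104, 115 and 126 CPM at 4Gy_48h and 143, 160 and 186 CPM in the controls and fell by 0.50 ± 0.12 (adjusted p = 0.00986; 0.0822 among known genes alone at its highest, lost without control replicate 3 or 4Gy_48h replicate 1). Btg2, an antiproliferative gene, had 8.57, 5.92 and 12.1 CPM at 4Gy_48h and 12.9, 19.5 and 30.5 CPM in the controls and fell by 1.23 ± 0.28 (adjusted p = 0.00695). Its groups were narrowly apart, and the call was lost in the fit to all genes without control replicate 3 (adjusted p = 0.0553) and in the fit to known genes alone without control replicate 3 or 4Gy_48h replicates 1 or 2 (adjusted p up to 0.121).

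Cdkn1a, the cycle inhibitor p21, had 393, 317 and 397 CPM at 4Gy_48h and 346, 430 and 550 CPM in the controls (-0.26 ± 0.14, adjusted p = 0.208). Mdm2, the ligase that degrades p53, had 105, 95.0 and 110 CPM at 4Gy_48h and 110, 154 and 124 CPM in the controls (-0.32 ± 0.14, adjusted p = 0.121). Neither passed, and in Cdkn1a the groups overlapped. Trp53 itself had 29.3, 25.4 and 27.5 CPM at 4Gy_48h and 37.8, 37.4 and 35.9 CPM in the controls. It fell by 0.43 ± 0.13 (adjusted p = 0.0326) and by 0.58 among known genes alone (adjusted p = 0.0343), a call that leaving out any 1 of the 6 libraries ended in the fit to all genes (adjusted p up to 0.135).

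The series concerns pyroptosis, in which caspases cut gasdermins into pore-forming fragments. Of 35 genes of that list 18 had enough reads to test, and Zbp1 rose and Txnip fell. Over all known genes 0.754% rose and 0.551% fell, so no result about the list is read from 1 gene each way. Txnip, a thioredoxin-binding protein known to engage the NLRP3 inflammasome and to follow glucose supply, had 87.8, 53.8 and 120 CPM at 4Gy_48h and 119, 218 and 321 CPM in the controls. Its groups overlapped at 120 against 119 CPM, and it fell by 1.33 ± 0.29 (adjusted p = 0.00483; up to 0.118 among known genes alone, lost without control replicate 3 or 4Gy_48h replicates 1 or 2). Casp1, the inflammatory caspase, had 13.5, 16.5 and 14.3 CPM at 4Gy_48h and 12.7, 17.9 and 14.2 CPM in the controls (-0.01 ± 0.17, adjusted p = 0.984). Gsdmd, a gasdermin cut by inflammatory caspases, had 4.67, 4.19 and 3.24 CPM at 4Gy_48h and 3.01, 1.54 and 3.48 CPM in the controls (0.59, adjusted p = 0.367). Gsdme, another gasdermin, had 13.8, 18.3 and 13.2 CPM at 4Gy_48h and 10.3, 9.73 and 7.23 CPM in the controls, without overlap (0.72 ± 0.27, adjusted p = 0.0755; 0.308 among known genes alone). Nlrp3 and the interleukin gene Il1b were not tested, Il1b having 1 read in 1 of the 6 libraries.

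Other routes of cell death and stress showed few calls, beside 0.754% of all known genes called higher and 0.551% lower in both fits. Of 16 necroptosis genes tested Zbp1 was the 1 that rose. Mlkl, whose product permeates the membrane in necroptosis, had 63.6, 70.8 and 65.3 CPM at 4Gy_48h and 41.5, 74.8 and 50.9 CPM in the controls (0.26, adjusted p = 0.386), and Ripk3, the kinase that acts on it, had 1 read in 1 irradiated library and none (0) in the others. None (0) of 26 intrinsic apoptosis, 26 iron and ferroptosis, 30 NRF2 antioxidant, 24 cholesterol synthesis and 35 unfolded protein and integrated stress response genes was called in both fits. The median farthest from 0 among these 5 lists was -0.12 among known genes alone, for the iron and ferroptosis genes, whose median was 0.03 over all genes. Tfrc, the transferrin receptor, was at 0.46 ± 0.24 (adjusted p = 0.215) and Nqo1, an NRF2-driven quinone reductase, at 0.59 ± 0.32 (adjusted p = 0.221), both with overlapping groups.

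Calls in cell cycle, repair and energy lists also stayed near the background of 0.754% higher and 0.551% lower. Of 56 G2/M and mitosis genes 1 rose. Among known genes alone 44 of them had positive and 12 negative values, where 51.6% of all known genes were negative. None (0) of 53 G1/S and DNA replication, 38 homologous recombination, Fanconi and checkpoint and 21 end joining genes was called in both fits. Of 75 nuclear-encoded oxidative phosphorylation genes Ndufa7, a complex I subunit, fell by 0.31 (adjusted p = 0.0332). Among known genes alone 61 of the 75 had negative values, beside the same 51.6%. The list's median there was -0.12, against 0.03 over all genes. None (0) of 32 proteasome or 12 mitochondrially encoded genes was called in both fits. The Ndufa7 call was lost in the fit to all genes without 4Gy_48h replicates 1 or 2 or control replicates 1 or 3 (adjusted p up to 0.175). Of 30 NF-kB, chemokine and secretory phenotype genes, Timp1, a metalloproteinase inhibitor, fell, with 338, 297 and 362 CPM at 4Gy_48h and 414, 375 and 509 CPM in the controls (-0.38 ± 0.12, adjusted p = 0.0358; up to 0.248, lost without control replicate 3 or 4Gy_48h replicates 1 or 2). Lcn2, an iron-chelating lipocalin of inflammation, had 51.7, 4.94 and 18.9 CPM at 4Gy_48h and 21.5, 259 and 52.0 CPM in the controls (-2.14 ± 0.73, adjusted p = 0.0528), where control replicate 2 was far above the other controls.

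**Figure D3:**
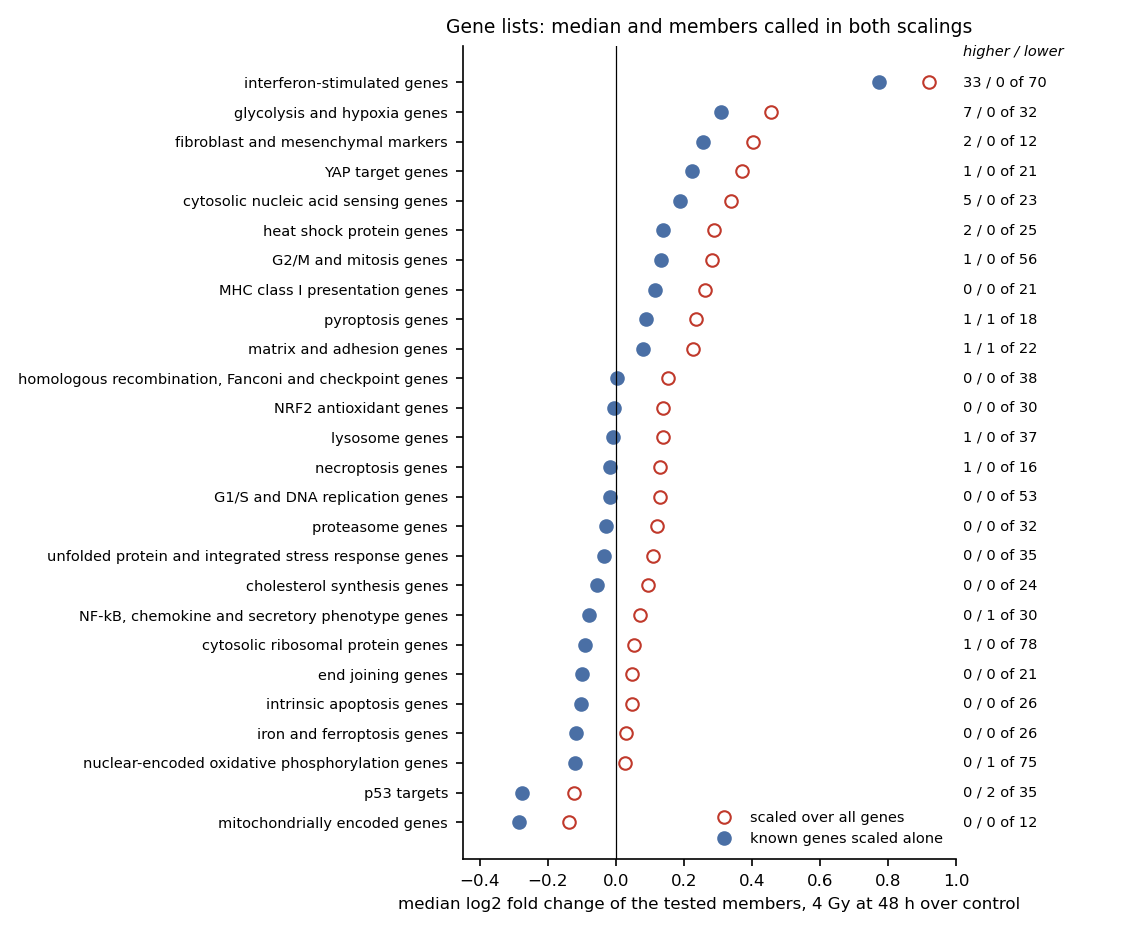
Median log2 fold change (x axis, 4 Gy at 48 h over control) of the tested members of each list of at least 10 tested genes, scaled over all genes (open) and among known genes alone (filled), with the number called higher and lower in both fits at the right. Interferon-stimulated genes stand at 0.77 among known genes alone with 33 of 70 called higher, and p53 targets at -0.28 with 2 of 35 called lower.

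The lower dose was set beside the higher one at the same time, where time in culture did not differ. Between 12Gy_48h and 4Gy_48h, 331 features were higher (2.19% of 15086) and 376 lower (2.49%) at 12Gy_48h over all genes, and 286 (2.91% of 9816) and 316 (3.22%) among known genes alone. In both fits 268 known genes were higher (2.73% of 9809) and 152 lower (1.55%). Without 12Gy_48h replicate 2 the counts in the separate fits were 41 and 36 over all genes, and 41 and 26 among known genes alone, and over all genes the higher and lower counts were at most 213 and 241 whichever of the 6 libraries was left out. Of the 74 genes that had risen at 4Gy_48h, 9 were higher still at 12Gy_48h in both fits and 3 were lower. Of the 54 that had fallen, 6 were higher and 1 was lower at 12Gy_48h. Both comparisons use the same 4Gy_48h libraries, so each is given by its own values. Fallen genes were picked by low values in those libraries, which tilts them towards higher values at 12Gy_48h. Risen genes are tilted the other way. The size of this tilt was not tested.

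The 9 genes were interferon genes or induced with them: Gbp2, Ifit3, Ifit3b, Ly6a, Mx2, Oasl1, Rsad2, Tgtp1 and Zbp1, of which Gbp2, Mx2 and Oasl1 were named after their values were seen. Ifit3 averaged 3.46 ± 0.652 CPM in the controls, 21.1 ± 4.70 CPM at 4Gy_48h and 52.5 ± 11 CPM at 12Gy_48h (SD, n = 3 each), a difference of 1.32 between the doses (adjusted p = 0.00345). Rsad2 differed by 1.36 (adjusted p = 0.000815), with 4.33 ± 0.266, 20.4 ± 1.51 and 52.5 ± 10.7 CPM in control, 4Gy_48h and 12Gy_48h libraries. Zbp1, at 8.37 ± 1.68, 36.0 ± 9.86 and 67.9 ± 10.0 CPM in the same order, differed by 0.92 (adjusted p = 0.0155). In both fits together, the Zbp1 call was lost without 12Gy_48h replicate 2 or replicate 3. The Ly6a call was lost without either of these and without 4Gy_48h replicate 2. Isg15 did not pass between the doses, at 270 ± 96.6, 704 ± 75.7 and 939 ± 157 CPM (0.42, adjusted p = 0.193). Over the 70 interferon genes 12 were higher at 12Gy_48h in both fits and none (0) was lower, and 4 of 21 MHC class I genes were higher, beside 2.73% of all known genes tested. With any 1 of the 6 libraries left out, 5 to 7 of the interferon genes and 1 to 6 of the MHC class I genes were higher.

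Ankrd37 took the other direction, at 1.37 ± 0.260 CPM in the controls, 12.2 ± 4.25 CPM at 4Gy_48h and 5.26 ± 1.42 CPM at 12Gy_48h, lower at the higher dose by 1.21 on the log2 scale (a difference of -1.21, adjusted p = 0.0258). The Ankrd37 call between the doses was lost without 12Gy_48h replicate 1 or replicate 2. There, none (0) of the glycolysis and hypoxia genes was lower in both fits. Cfap69, a ciliary gene, and Serbp1, an mRNA-binding protein, both named after their values were seen, were lower by -0.57 (adjusted p = 0.0181) and -0.49 (adjusted p = 0.0128). Car9 was at 4.96 ± 3.16, 24.5 ± 11.9 and 7.72 ± 5.79 CPM in control, 4Gy_48h and 12Gy_48h libraries (-1.65, adjusted p = 0.0512; 0.035 among known genes alone).

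Egr1 and Txnip, both picked here as fallen at 4Gy_48h, were higher at 12Gy_48h than at 4Gy_48h. Egr1 averaged 267 ± 8.11 CPM in the controls, 111 ± 12.0 CPM at 4Gy_48h and 231 ± 40.0 CPM at 12Gy_48h, a difference of 1.05 between the doses (adjusted p = 0.000815). Txnip averaged 220 ± 101, 87.2 ± 33.1 and 212 ± 39.0 CPM in the same order (1.28, adjusted p = 0.022). The other 4 fallen genes that were higher at 12Gy_48h were 9530053A07Rik, Cep120, Clk1 and Robo3, and Timp1 was lower still at 211 ± 16.8 CPM against 332 ± 32.6 CPM at 4Gy_48h (-0.66, adjusted p = 0.00849).

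Several genes that did not pass at 4Gy_48h against control did differ between the doses. Mdm2 averaged 187 ± 28.4 CPM at 12Gy_48h and 103 ± 7.45 CPM at 4Gy_48h (0.86, adjusted p = 0.00446), Casp1 27.2 ± 2.36 CPM at 12Gy_48h and 14.8 ± 1.57 CPM at 4Gy_48h (0.88, adjusted p = 0.00949), and Nqo1 34.3 ± 11.2 CPM at 12Gy_48h and 12.4 ± 3.67 CPM at 4Gy_48h (1.47, adjusted p = 0.00949). By list, 15 of 30 NRF2 antioxidant genes and 5 of 35 p53 targets were higher at 12Gy_48h in both fits and none (0) lower, while 14 of 78 cytosolic ribosomal protein genes were lower and none (0) higher, beside 2.73% higher and 1.55% lower over all known genes. The ribosomal count was 31 among known genes alone, and with any 1 of the 6 libraries left out it was 0 to 6 in both fits. The NRF2 count was 5 without 12Gy_48h replicate 2, 7 without 4Gy_48h replicate 3, 9 without 12Gy_48h replicate 1 and 10 to 16 otherwise, and the p53 count was 2 to 4. Cdkn1a did not pass between the doses, at 422 ± 7.40 CPM at 12Gy_48h and 369 ± 45.3 CPM at 4Gy_48h (0.19, adjusted p = 0.44).

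**Figure D4:**
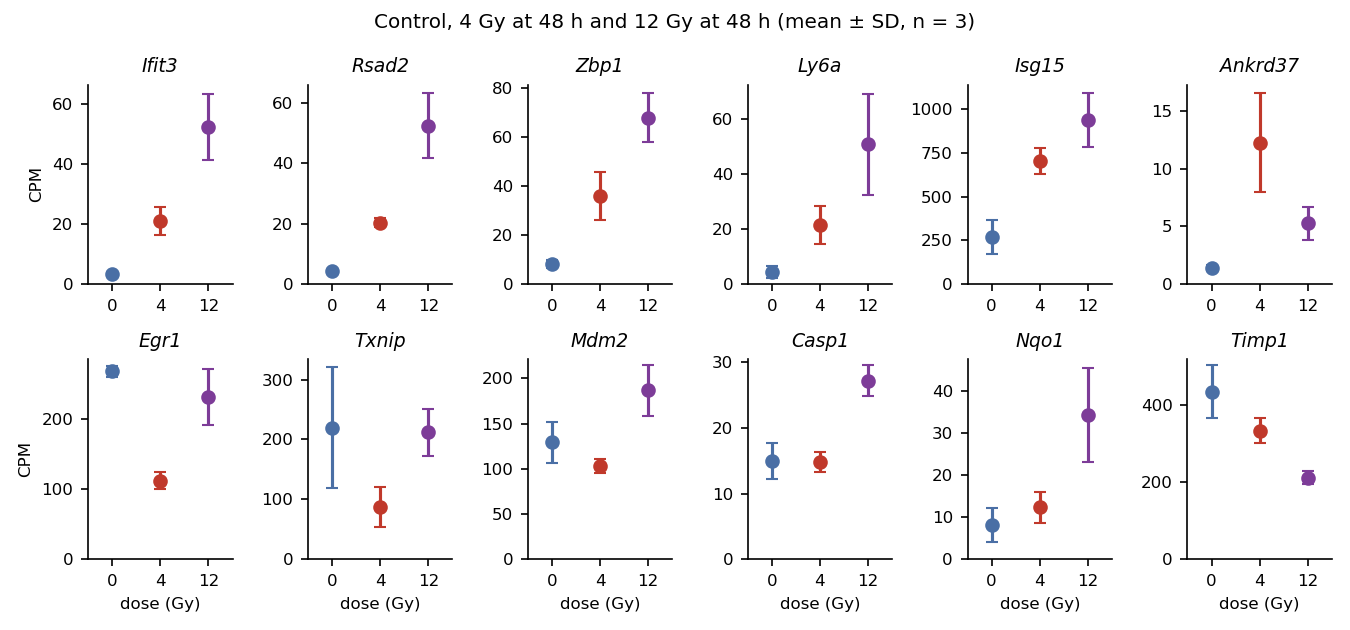
Mean CPM (y axis, from 0) with SD (bars, n = 3) of 12 genes against dose in Gy (x axis): 0 is the control at 0 h, 4 and 12 are the 48 h groups, drawn at equal steps as categories. The means of Ifit3, Rsad2, Zbp1 and Ly6a climb over the 3 groups, and Isg15 did not pass between 4 and 12 Gy. The Zbp1 and Ly6a calls between 4 and 12 Gy were lost when some single libraries were left out. Egr1, Txnip and Ankrd37 have their extreme at 4 Gy, which picking genes by their 4 Gy values favours.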

How the data were processed

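RNA libraries of 12 samples in 4 groups of 3 were read from 1 deposited gene table. Per the file headers, each library has a column of raw read counts and one of CPM, which the authors computed as count over column total (recomputed CPM differed by at most 4.78e-06). Per the submitters' processing notes, reads were trimmed with cutadapt 1.9 and checked with FastQC. The sources used here name no aligner, genome build, annotation, strand setting or platform. The table had 33636 lines, 11 of them overflow of a long annotation cell, and 33625 features, of which 22036 were known genes and 10995 new loci, the rest being long noncoding loci. Symbols were restored by Ensembl identifier (22022 matched), since 27 had become dates. Positions come from GENCODE M21 on GRCm38, promoter windows from RefSeq on GRCm38.p6.

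For testing, edgeR 4.0.16 (R 4.3.3) took the counts through filterByExpr and TMM. Its quasi-likelihood model gave each of the 4 groups a mean and used the 12 libraries together, once with all features and once with known genes alone. Biological coefficients of variation were 0.144 and 0.125. The fits were tested on simulated data with known changes. Of changes of 1.5-fold, 10% were recovered over all genes and 30% among known genes alone. Of changes of 2-fold 52% and 66% were recovered, and of 4-fold 94% and 100%. Changes near 1.5-fold were thus mostly missed in the simulated data. False calls numbered 11 over all genes and 12 among known genes alone. The simulated data held no fall of the new loci as a class, so recovery in the real data may differ. The 2 known genes lower only among known genes alone are not described.

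The rule for named genes took the 12 largest rises and 12 largest falls, and up to 5 called members of each list. It also took fixed genes, 4 loci outside the known genes, and the most expressed tested member of each list, whatever its result. The largest rises and falls were called in both fits without overlap, with a mean of at least 5 CPM in the higher group and predicted genes left out. Of the 84 so chosen, 18 were there only as the most expressed member of a list and were not called. Most of these 18 are left out of the text, as is Phgdh, which passed only in the fit to all genes. Members and lists were chosen with earlier results of these data known. Replicate numbers were not used to pair the libraries in the main fits. The alternatives were RLE scaling, scaling from known genes, no filter, a mean of 5 CPM, DESeq2 1.42.0, the 6 libraries alone, a replicate block and each library left out.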

Additional observations from a re-analysis of the deposited data

How the results depend on the processing

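Over all genes the 684 higher features became 420 with DESeq2, 1185 with no filter and 281 with scaling from known genes, and 304 to 1011 with 1 library left out, while the 1965 lower ones ran from 1220 to 2159. Among known genes alone the 74 higher became 36 in the 6 libraries alone, 209 with no filter and 29 to 158 with 1 library left out. The 56 lower became 15, 213 and 14 to 122 in the same settings. Between 12Gy_48h and 4Gy_48h over all genes, the 331 higher became 499 in the 6 libraries alone, 537 with no filter and 41 to 213 with 1 library left out. The 376 lower became 576 with no filter and 36 to 241. Among known genes alone the 286 higher became 586, 506 and 41 to 233, and the 316 lower became 567, 484 and 26 to 240. The share of reads outside known genes differed by -5.587 percentage points, and the share of new loci with reads by -3.177. Casp1, at -0.008, was 0.018 in the 6 libraries alone, 0.066 with no filter and -0.111 to 0.182 with 1 library left out. With the replicate block 581 features were higher and 1803 lower over all genes, and 55 and 44 among known genes alone. Deviations of same-numbered libraries correlated at -0.0869, -0.1066 and 0.0933 among known genes alone. With 3 libraries a group, such values cannot settle whether same-numbered libraries were handled together. Of 48 named genes called in both fits, 38 passed the fit to all genes with each library left out and 18 the fit to known genes alone. The cause of these shifts was not tested. With 3 libraries a side, a gene that did not pass may still differ.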
